A study of Mus musculus with 11 samples.

Results

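Fatty acids reach an adipocyte largely from triglyceride-rich lipoproteins, and the genes described here handle that passage: Lpl and Angptl4 outside the cell, Vldlr, Cd36 and Slc27a1 at its surface, and Fabp4, Fabp5 and Acsl1 inside it. They were taken by gene symbol, and every probe set that the array annotation pairs with any of these 8 genes was used, whatever its values. This gave 13 of the 12488 probe sets on the array, for 7 of the 8 genes. Of the 13, 12 passed a filter on dim signal and were tested. Acsl1, a synthetase that joins entering fatty acids to coenzyme A, is paired with no probe set in the annotation used and was not measured here.

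The samples were 3T3-L1 cells, murine fibroblasts that become adipocytes under a hormone cocktail; whether these cultures had been differentiated is not stated in the labels. Cells received 20 µM pioglitazone (2 arrays), 1 µM rosiglitazone (3 arrays), 20 µM troglitazone (3 arrays) or the vehicle, 0.1% DMSO (3 arrays), each for 24 h; the labels name DMSO for the vehicle group alone. The drugs belong to the thiazolidinediones, which bind and activate the nuclear receptor PPARγ. Set 1 holds replicates 1 and 2 of every group (8 arrays) and set 2 holds replicate 4 of rosiglitazone, troglitazone and vehicle (3 arrays), so pioglitazone was measured in set 1 only. The labels do not say whether the replicates were separate cultures, so the p-values measure the spread between these samples, which may be technical.

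Lipoprotein lipase, the product of Lpl, is secreted by adipocytes and cuts triglyceride in circulating lipoproteins, which releases fatty acids. Angptl4 is a secreted protein that inactivates the lipase, the VLDL receptor (Vldlr) binds the lipoproteins, and CD36 and the transport protein FATP1 (Slc27a1) help fatty acids cross the plasma membrane. Inside the cell the fatty acid binding proteins FABP4, long used as a marker of adipocytes, and FABP5 carry them through the cytosol. Several of these genes, Angptl4, Fabp4, Cd36 and Lpl among them, are textbook targets of PPARγ.

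Among the 7 measured genes, Angptl4 rose with each of the 3 drugs in its 2 bright probe sets, and Fabp5 rose with pioglitazone and with rosiglitazone. No member fell, and Lpl, Cd36, Fabp4, Slc27a1 and Vldlr did not pass the test with any drug. "Rose" and "fell" mean an adjusted p under 0.05 in limma, a linear model fitted to all 11739 tested probe sets. The 2 genes that rose with pioglitazone stand beside 0.63% of all tested probe sets that rose with it, the 2 with rosiglitazone beside 0.784%, and the 1 with troglitazone beside 0.775%. Rises with all 3 drugs were called for 0.324% of tested probe sets, and Angptl4 is among them with 2 probe sets. The measurements are from RNA of whole cultures, in which fewer cells of a type and less RNA per cell cannot be told apart.

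Signals are in array units that the authors had scaled to a common mean. The median signal of an array lay between 163.1 and 244.2. Values under a floor of 73.7 were raised to it for the tests, and signals of different probe sets cannot be set against each other as amounts of transcript. Pairs of arrays correlated between 0.82 and 0.945. Rosiglitazone replicate 2 stood apart, and without it the lowest correlation was 0.861. Pioglitazone replicate 2 had a beta-actin 3' to 5' ratio of 4.86, against 1.79 to 2.27 on the other arrays of set 1. The rosiglitazone, troglitazone and vehicle arrays of set 2 were at 3.74, 3.79 and 3.90. On the arrays of set 2, 25.7% to 29.2% of tested values lay at the floor described below, against 13.7% to 21.3% in set 1. Of the probe sets called with pioglitazone, 69.8% were higher, and this share was 49.4% after quantile normalisation and 87.3% after each array was centred on its median. For troglitazone it was 58.3%, 51.1% and 69.7% in the same order. Median centring moved the median pioglitazone difference of all tested probe sets to 0.06, against -0.08 as deposited.

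The cell type was checked against marker lists. Of 12 adipocyte markers, 10 were on the array, and none lay at the floor throughout any group. Their summed signal ran from 188893 to 190885 with pioglitazone, from 167682 to 216154 with rosiglitazone, from 145237 to 171254 with troglitazone and from 199941 to 245685 with vehicle. The sum of 9 preadipocyte or fibroblast markers was 6186 to 6302, 6453 to 8156 and 4663 to 7512 with the drugs in the same order, and 8997 to 10804 with vehicle. Both sums were thus lower on every pioglitazone and every troglitazone array than on any vehicle array, and the fibroblast sum also on every rosiglitazone array. The adipocyte sum is dominated by its brightest probe sets, Scd1 above all (80600 with pioglitazone, 113732 with vehicle). Of the 10 markers, 4, 5 and 2 were above vehicle with pioglitazone, rosiglitazone and troglitazone. The median log2 differences of the 10 were -0.12, 0.01 and -0.38. With each drug 1 rose (Cidec), and 2, 3 and 3 fell, beside 0.273%, 0.571% and 0.554% of all tested probe sets. Pparg, the gene of PPARγ, and Fasn fell with each drug, and Retn with rosiglitazone and troglitazone. Pparg was at -1.93, -1.43 and -1.89 on the log2 scale (limma, adjusted p = 0.000901, 0.00204 and 0.000133). Of the 9 preadipocyte or fibroblast markers, 1, 1 and 2 fell, 0 rose, and 0, 2 and 1 were above vehicle. Their median log2 differences were -1.08, -0.65 and -0.78. Fn1 fell with each drug (adjusted p = 0.0269, 0.0203 and 0.00941) and Col1a1 with troglitazone (adjusted p = 0.0240). The macrophage list gave 1806 to 5341 on the drug arrays and 2544 to 4694 on the vehicle arrays. Of its 12 markers, 4 lay at or under the floor on every pioglitazone array, and 3 on every array of each other group. Among the 10 tested, Cd14 fell with troglitazone (-1.49, adjusted p = 0.0246) and for the mean of the 3 drugs (-1.07, adjusted p = 0.0459). With pioglitazone and rosiglitazone 0 of the 10 passed. The 9 endothelial markers summed to 511.9 to 1320 on the drug arrays and 698.4 to 1450 on the vehicle arrays; Eng was above the floor on all 11 arrays, Pecam1 on 9 and Cdh5 on none. The part of these shifts in the results below was not tested.

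**Figure D1:**
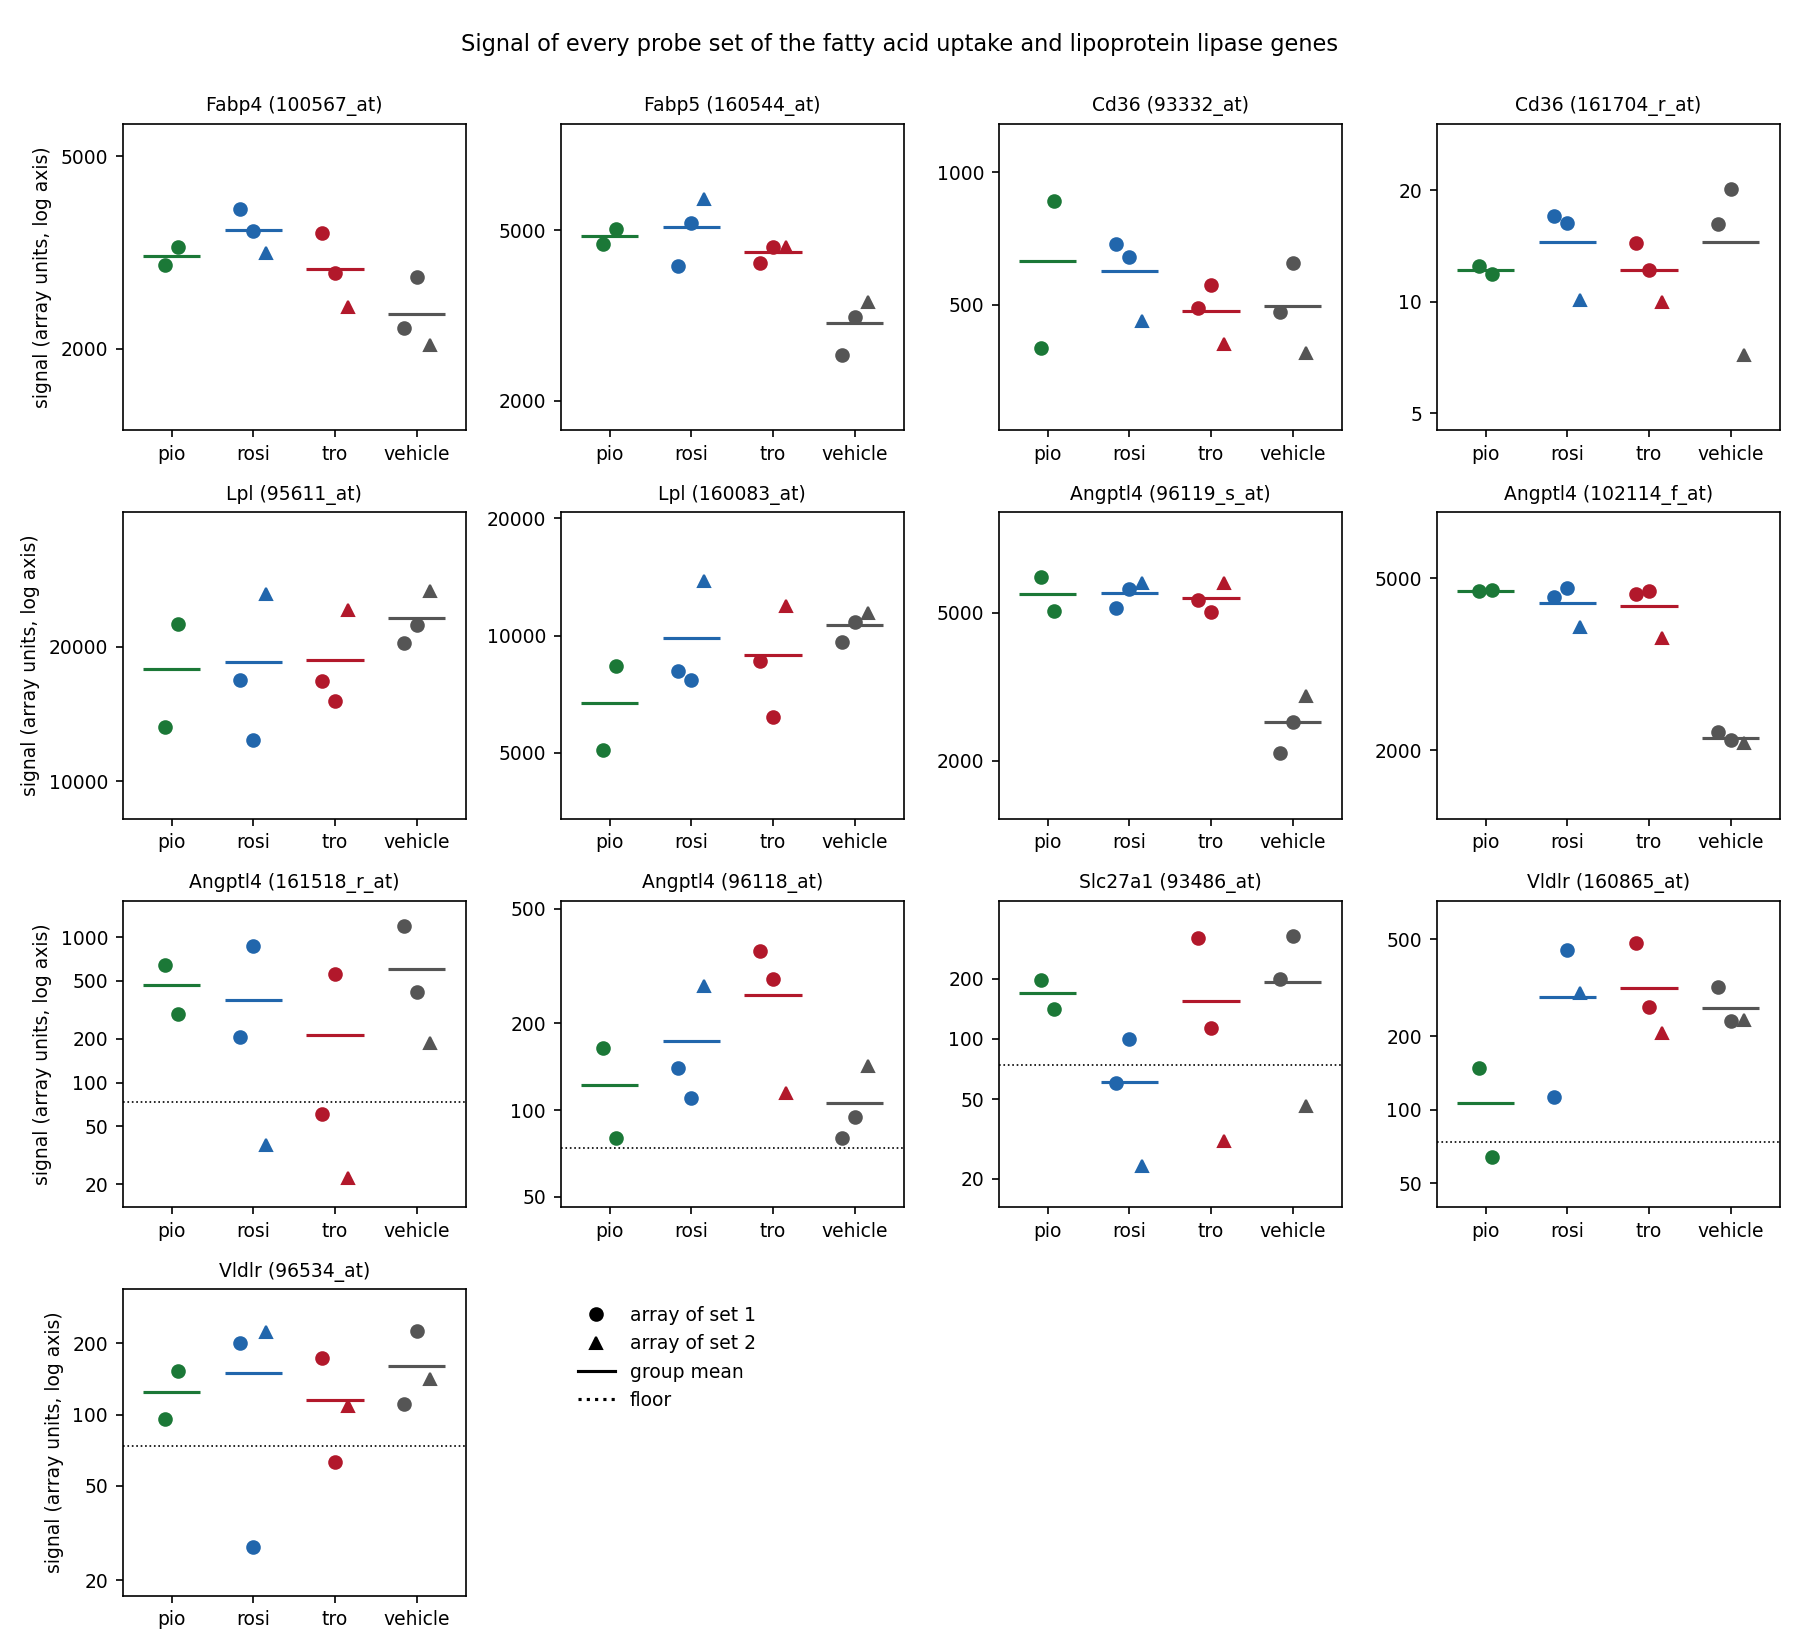
Signal of each of the 13 probe sets (array units, log axis) on each of the 11 arrays, by group; circles are arrays of set 1, triangles arrays of set 2, lines the group means and the dotted line the floor of 73.7. The drug arrays lie above all vehicle arrays for both bright Angptl4 probe sets and for Fabp5, while the groups overlap for Cd36.

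Angptl4, the inhibitor of lipoprotein lipase, had the clearest difference from vehicle of the members. Its brightest probe set (96119_s_at) read 6232.7 and 5046.8 with pioglitazone, 5144.1, 5789.9 and 6005.2 with rosiglitazone, and 5430.6, 5036.9 and 6030.5 with troglitazone, against 2095.9, 2550.2 and 2994.1 with vehicle. Every drug array was above every vehicle array, which held for 1.38% of all tested probe sets, and the lowest drug array was well clear of the highest vehicle array. The fitted rise was 1.23 ± 0.16 on the log2 scale with pioglitazone (2.35-fold, 95% interval 1.85 to 2.99, adjusted p = 0.00116). It was 1.16 ± 0.14 with rosiglitazone (2.24-fold, 1.82 to 2.75, adjusted p = 0.000511) and 1.12 ± 0.14 with troglitazone (2.18-fold, 1.77 to 2.68, adjusted p = 0.00034). Errors of log2 differences are standard errors. None of the 11 arrays, left out in turn, ended any of these calls.

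A further bright probe set of Angptl4 (102114_f_at) gave the same picture. It read 4665.9 and 4696.9 with pioglitazone, 4524.9, 4743.2 and 3866.5 with rosiglitazone, and 4598.5, 4674.3 and 3633.4 with troglitazone, against 2206.0, 2112.7 and 2084.3 with vehicle. The vehicle arrays lay close together, at 2134 ± 63.7 (SD, n = 3), and far under the drug arrays. The log2 rise was 1.06 ± 0.15 with pioglitazone (adjusted p = 0.00212), 1.03 ± 0.13 with rosiglitazone (adjusted p = 0.000636) and 1.00 ± 0.13 with troglitazone (adjusted p = 0.000501). All of these calls rest on the variance prior that follows the signal: without it the adjusted p of the 2 bright probe sets ran from 0.125 to 0.25 over the 3 drugs. When each fit held just the arrays of the drug and of vehicle, the pioglitazone call was lost for both (adjusted p = 0.408) and the rosiglitazone call for 96119_s_at (adjusted p = 0.0579).

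The other 2 probe sets of Angptl4 did not share this pattern. 161518_r_at read 647.3 and 297.2 with pioglitazone, 205.5, 867.5 and 37.4 with rosiglitazone, and 60.5, 555.6 and 22.2 with troglitazone, against 1192.1, 422.3 and 185.6 with vehicle. Its values scattered widely within every group, and 3 of the 8 drug arrays were under the floor. Its fitted differences were -0.71, -0.94 and -1.65 with pioglitazone, rosiglitazone and troglitazone, opposite in sign to the bright probe sets, and none passed (adjusted p = 0.885, 0.702 and 0.574). 96118_at ran from 79.9 to 356.3 on the drug arrays and from 80.0 to 142.1 on the vehicle arrays, with differences of 0.20, 0.65 and 1.14 that did not pass either. On these arrays a suffix with s or f marks a probe set that can match several transcripts, and one with r a probe set built under relaxed rules. All Angptl4 calls thus rest on probe sets with an s or f suffix, and 96118_at, which has no such letter, passed with no drug.

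Lpl, the lipase itself, was bright on all 11 arrays and did not pass with any drug. Its brighter probe set (95611_at) read 13258.6 and 22504.8 with pioglitazone, 16860.4, 12377.4 and 26220.7 with rosiglitazone, and 16808.3, 15136.8 and 24191.9 with troglitazone, against 20454.5, 22414.8 and 26721.3 with vehicle. All groups overlapped. The other probe set (160083_at) read 5086.0 and 8334.9 with pioglitazone, 8113.0, 7709.4 and 13837.9 with rosiglitazone, and 8620.8, 6181.1 and 11904.7 with troglitazone, against 9654.3, 10816.7 and 11423.7 with vehicle. Here both pioglitazone arrays were below all vehicle arrays, as they were for 12.2% of tested probe sets, and the other drugs overlapped with vehicle.

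The fitted Lpl differences were all below 0, and none passed. For 95611_at they were -0.22 ± 0.21 with pioglitazone (adjusted p = 0.830), -0.39 ± 0.18 with rosiglitazone (adjusted p = 0.482) and -0.33 ± 0.18 with troglitazone (adjusted p = 0.705). For 160083_at they were -0.52 ± 0.22, -0.15 ± 0.19 and -0.30 ± 0.19 (adjusted p = 0.436, 0.819 and 0.773). The 95% intervals of 95611_at span -0.67 to 0.23, -0.78 to 0.00 and -0.72 to 0.06, and the lowest of these ends corresponds to 0.583 of the vehicle level. Those of 160083_at span -0.99 to -0.05, -0.56 to 0.25 and -0.71 to 0.10. Its pioglitazone interval lies below 0 (limma, unadjusted p = 0.0326), and the lower end corresponds to 0.505 of the vehicle level. Without pioglitazone replicate 1 the pioglitazone difference of 95611_at was 0.16.

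**Figure D2:**
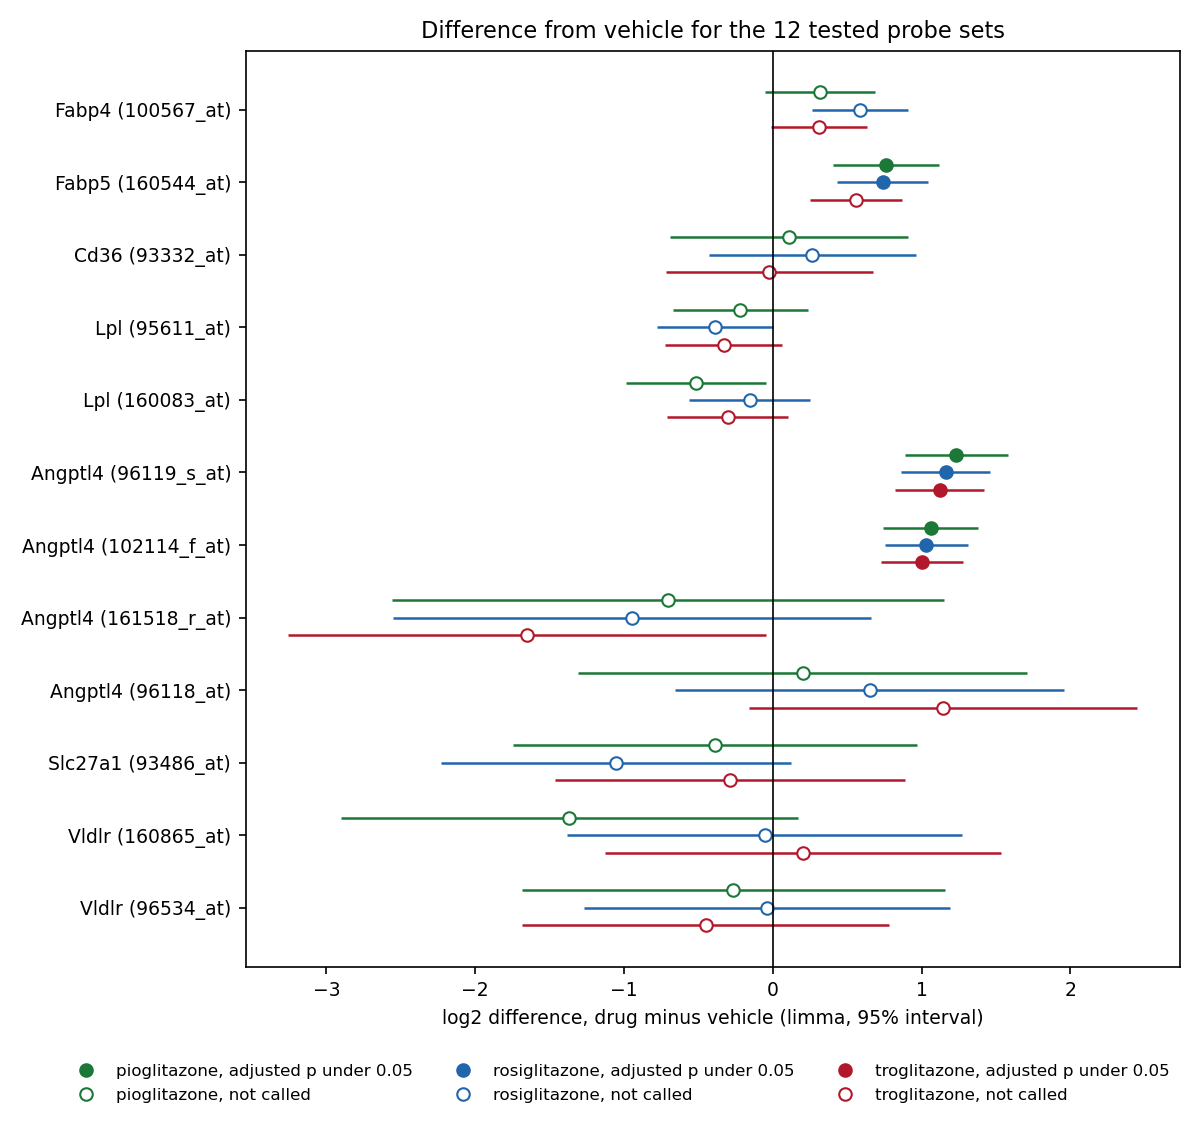
Fitted log2 difference of each drug from vehicle for the 12 tested probe sets (points, limma) with 95% intervals (lines); filled points passed at an adjusted p under 0.05. Filled points appear for the 2 bright Angptl4 probe sets with every drug and for Fabp5 with pioglitazone and rosiglitazone, and the dim probe sets have the widest intervals.

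Among the surface proteins, Cd36, the fatty acid translocase, did not pass with any drug. Its tested probe set (93332_at) read 399.6 and 859.2 with pioglitazone, 688.1, 640.4 and 459.5 with rosiglitazone, and 492.3, 554.5 and 406.5 with troglitazone, against 482.3, 620.6 and 389.5 with vehicle. The pioglitazone pair held the highest array and nearly the lowest, and each group overlapped with vehicle. The log2 differences were 0.11 ± 0.38, 0.27 ± 0.33 and -0.02 ± 0.33 with pioglitazone, rosiglitazone and troglitazone (adjusted p = 0.974, 0.817 and 1). The intervals reach from -0.69 to 0.91 with pioglitazone, from -0.43 to 0.96 with rosiglitazone and from -0.72 to 0.67 with troglitazone, so a difference of the size fitted for Angptl4 with the same drug lies outside each of them, and one of the size seen for Fabp5 lies inside. Without pioglitazone replicate 2, the array with the highest beta-actin ratio, the pioglitazone difference was -0.44, and without pioglitazone replicate 1 it was 0.66. The other Cd36 probe set (161704_r_at) read 7.2 to 20.2 on all 11 arrays, under the floor, and was not tested.

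Slc27a1, the transport protein FATP1, was dim. Its probe set (93486_at) read 198.1 and 141.7 with pioglitazone, 60.2, 99.5 and 23.0 with rosiglitazone, and 319.5, 113.6 and 30.7 with troglitazone, against 200.4, 328.7 and 46.3 with vehicle. Only 7 arrays were above the floor, and all 3 arrays of set 2 were under it, so set 2 holds no measured difference for this gene. The fitted differences were -0.39 ± 0.64 with pioglitazone, -1.06 ± 0.55 with rosiglitazone and -0.29 ± 0.55 with troglitazone, none of which passed (adjusted p = 0.926, 0.544 and 0.970).

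Vldlr, the receptor for very low density lipoprotein, was measured by 2 dim probe sets. 160865_at read 148.7 and 63.8 with pioglitazone, 112.5, 454.2 and 300.3 with rosiglitazone, and 481.4, 263.6 and 206.2 with troglitazone, against 317.8, 230.7 and 234.5 with vehicle. Both pioglitazone arrays were below all vehicle arrays, as for 12.2% of tested probe sets, and the fitted difference of -1.37 ± 0.72 did not pass (adjusted p = 0.582). With rosiglitazone and troglitazone it was -0.05 ± 0.62 and 0.20 ± 0.62 (adjusted p = 0.991 and 0.993). The other probe set (96534_at) ran from 27.5 to 222.5 on the drug arrays and from 111.3 to 226.2 on the vehicle arrays, with differences of -0.27, -0.04 and -0.45. Its pioglitazone arrays, at 95.6 and 152.8, overlapped with vehicle.

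Fabp5, a carrier of fatty acids in the cytosol, read 4651.2 and 5045.2 with pioglitazone, 4131.1, 5195.8 and 5909.2 with rosiglitazone, and 4187.8, 4561.3 and 4580.3 with troglitazone, against 2564.2, 3132.3 and 3403.1 with vehicle (160544_at). As for Angptl4, all drug arrays were above all vehicle arrays. The log2 difference was 0.76 ± 0.17 with pioglitazone (1.69-fold, 95% interval 1.33 to 2.17, adjusted p = 0.0446) and 0.74 ± 0.14 with rosiglitazone (1.67-fold, 1.35 to 2.06, adjusted p = 0.0169). With troglitazone it was 0.56 ± 0.14 (1.47-fold, 1.19 to 1.82) and missed the threshold (adjusted p = 0.0861); after median centring it passed (0.67, adjusted p = 0.0436).

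The Fabp5 calls depended on single arrays and on the settings of the fit. Leaving out any of the 11 arrays ended the pioglitazone call (log2 difference 0.66 to 0.85, adjusted p from 0.0507 to 0.233). The rosiglitazone call ended without rosiglitazone replicate 2 (adjusted p = 0.0999), rosiglitazone replicate 4 (0.125), vehicle replicate 1 (0.112) or vehicle replicate 4 (0.0915). For the mean of the 3 drugs the rise was 0.69 ± 0.12 (adjusted p = 0.00507, beside 1.28% of tested probe sets that rose), and it ended without vehicle replicate 1 (0.60, adjusted p = 0.0798). In all, 19 of 24 alternatives ended the pioglitazone call (adjusted p up to 0.424), quantile normalisation and the beta-actin covariate among them, and 9 of 24 the rosiglitazone call (up to 0.326). Set 1 alone, no set term and no intensity trend ended the calls of both drugs and of the mean (up to 0.222), and the direction was upward in every one of these fits.

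Fabp4, the adipocyte fatty acid binding protein, read 2980.9 and 3239.2 with pioglitazone, 3892.9, 3505.0 and 3147.8 with rosiglitazone, and 3470.5, 2862.0 and 2437.0 with troglitazone, against 2209.5, 2818.6 and 2037.1 with vehicle (100567_at). The pioglitazone and rosiglitazone arrays were all above the vehicle arrays, as they were for 9.88% and 5.42% of tested probe sets, and troglitazone overlapped with vehicle. The log2 differences were 0.31 ± 0.17 with pioglitazone (1.24-fold, adjusted p = 0.611), 0.59 ± 0.15 with rosiglitazone (1.5-fold, adjusted p = 0.0803) and 0.31 ± 0.15 with troglitazone (1.24-fold, adjusted p = 0.629). The upper ends of the intervals were 1.61-fold, 1.88-fold and 1.55-fold. No alternative brought a Fabp4 call; for rosiglitazone the lowest adjusted p among them was 0.0519.

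Troglitazone and pioglitazone were given at the same dose for the same time and could be compared directly; troglitazone carries a chroman group where pioglitazone carries a pyridine group. The 7 genes gave 0 calls in this comparison, in which 0.0341% of all probe sets were called (4, and 745 at an unadjusted p under 0.05). For Angptl4 the difference, troglitazone minus pioglitazone, was -0.11 on the log2 scale with a 95% interval of -0.46 to 0.23 (adjusted p = 0.976). For Fabp5 it was -0.20 (-0.56 to 0.15, adjusted p = 0.927), for Fabp4 0.00 (-0.37 to 0.37) and for Lpl -0.11 (-0.57 to 0.34). As ratios of troglitazone to pioglitazone, the intervals run from 0.728 to 1.18 for Angptl4 96119_s_at and from 0.680 to 1.11 for Fabp5.

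The widest gap between the 2 drugs was in Vldlr (160865_at), with 481.4, 263.6 and 206.2 with troglitazone against 148.7 and 63.8 with pioglitazone. Every troglitazone array was above every pioglitazone array, as in 8.65% of tested probe sets. The difference was 1.57 ± 0.72 (95% interval 0.03 to 3.10), which did not pass after adjustment (unadjusted p = 0.0457, adjusted p = 0.763). The other Vldlr probe set gave -0.19 (adjusted p = 0.995). For Cd36 the interval was -0.94 to 0.67 and for Slc27a1 -1.25 to 1.46, too wide to place either gene. Rosiglitazone was given at 1 µM and the others at 20 µM, so its values above stand beside theirs without a test.

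Within each set, the brightest Angptl4 probe set was above vehicle. The mean log2 signal of 96119_s_at exceeded vehicle by 1.28 with pioglitazone in set 1, by 1.24 in set 1 and 1.00 in set 2 with rosiglitazone, and by 1.18 and 1.01 with troglitazone. For Fabp5 the values were 0.77 with pioglitazone, 0.71 and 0.80 with rosiglitazone, and 0.62 and 0.43 with troglitazone. Fabp4 was likewise above vehicle in both sets, by 0.32, by 0.57 and 0.63, and by 0.34 and 0.26. These 3 probe sets thus lay above vehicle in each set in which a drug was measured. The Angptl4 probe sets with no call did not: 161518_r_at was below vehicle throughout, and 96118_at with troglitazone was at 1.87 in set 1 and -0.31 in set 2.

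Lpl was less even between the sets. The probe set 160083_at was at -0.65 with pioglitazone in set 1, at -0.37 in set 1 and 0.28 in set 2 with rosiglitazone, and at -0.49 and 0.06 with troglitazone. 95611_at was at -0.31, at -0.57 and -0.03, and at -0.42 and -0.14. Set 2 holds 1 array each of rosiglitazone, troglitazone and vehicle and none of pioglitazone, and a test of the change between sets called 0 of all 11739 probe sets with either drug (437 and 288 at an unadjusted p under 0.05 with rosiglitazone and troglitazone). For 160083_at the change, set 2 minus set 1, was 0.65 with rosiglitazone (unadjusted p = 0.166) and 0.54 with troglitazone (unadjusted p = 0.236), both with an adjusted p of 1.

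**Figure D3:**
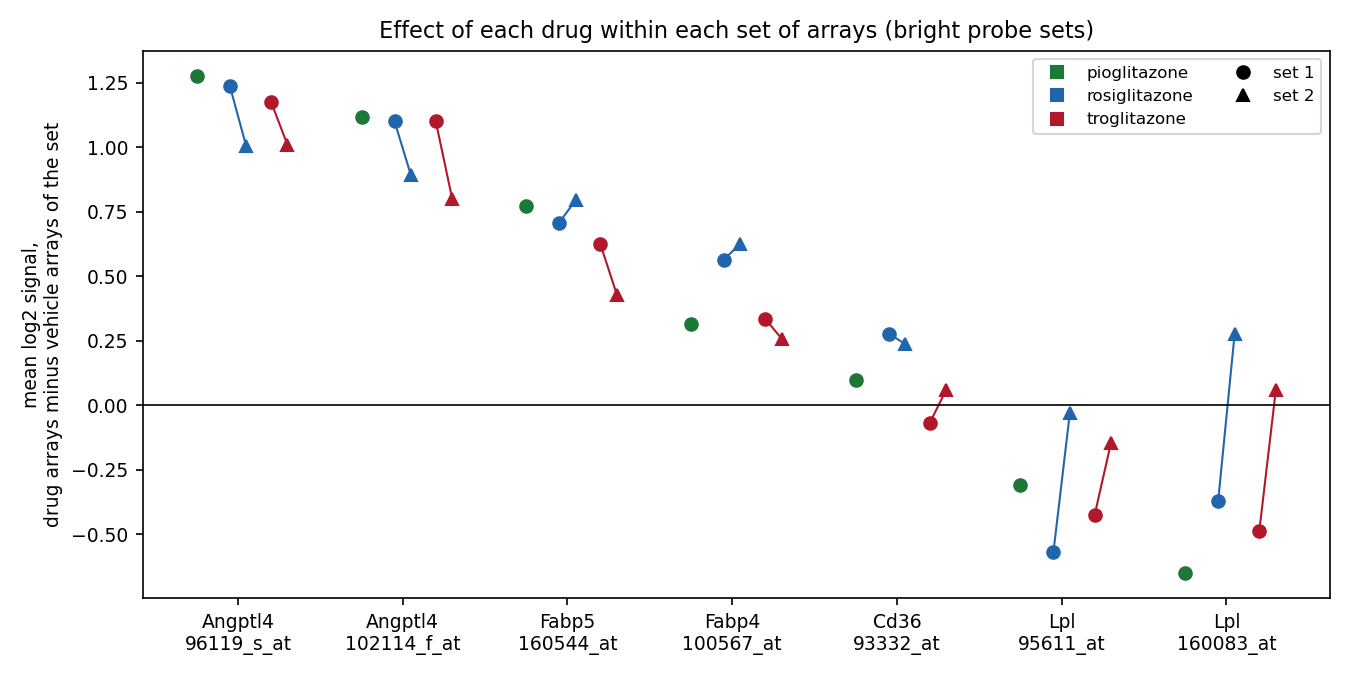
Mean log2 signal of the drug arrays minus that of the vehicle arrays of the same set, for the probe sets that read over 4 times the floor on every array; circles are set 1, triangles set 2, and lines join the sets of a drug. The bright Angptl4 probe sets, Fabp5 and Fabp4 lie above 0 in both sets with every drug measured there, while Lpl 160083_at lies below 0 in set 1 and above it in set 2.

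PPARγ binds DNA as a dimer with RXR at a direct repeat known as DR1, whose hexamers read AGGTCA with 1 base between them. Windows from 250 bases before to 50 after the gene start were in the RefSeq table (GRCm38.p6) for 4 of the 8 genes: Cd36, Slc27a1, Acsl1 and Vldlr, with 8 windows. None held the repeat on either strand, exactly or with 1 mismatch, which 0.0396% and 0.554% of all 32851 windows of this length did. The hexamer alone was in 1 window, that of Cd36, and in 16.3% of all windows. The Cd36 window is shown because it is the only member's that holds the hexamer and Cd36 is a textbook PPARγ target that did not pass here. It lies at chr5:17835847-17836146 on the minus strand, and capitals mark the hexamer, read on the opposite strand of the printed one.
Cd36: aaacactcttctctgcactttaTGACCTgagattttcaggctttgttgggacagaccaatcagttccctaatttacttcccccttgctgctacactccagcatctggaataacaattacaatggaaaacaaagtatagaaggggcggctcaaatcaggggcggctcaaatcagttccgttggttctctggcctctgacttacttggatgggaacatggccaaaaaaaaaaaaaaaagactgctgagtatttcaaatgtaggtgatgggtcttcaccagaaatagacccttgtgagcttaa
A match is a description of these letters and not a binding site.

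The genes whose signal across the 11 arrays was most like each member's were taken by Pearson correlation after the mean of each set was removed. Nearest to Angptl4 were Esrra, the nuclear receptor ERRα (r = 0.987), Anxa2 (0.983) and Acaa1b, a peroxisomal thiolase (0.983). With pioglitazone, rosiglitazone and troglitazone, Acaa1b differed from vehicle by 2.29, 1.95 and 1.96 on the log2 scale and Esrra by 0.96, 0.81 and 0.81. Nearest to Fabp5 were Tufm, a mitochondrial elongation factor (0.969), Mrap (0.957) and Mrpl12, a mitochondrial ribosomal protein (0.948). Fabp4 was closest to Lss, an enzyme of sterol synthesis (0.928), and Lpl to Rpn2, a subunit of the oligosaccharyltransferase (0.961). The correlations are a description over 11 arrays that share groups and scaling, and the highest of many candidates is high by choice.

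For the dimmer members the nearest genes were Akap1 for Cd36 (0.894), Hoxa9 for Slc27a1 (0.936) and Dnajc8 for Vldlr (0.958). None of the 3 members passed with any drug.

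Other genes of the pathway were read from lists. Of 9 measured lipases and genes that control lipoprotein lipase, 1 fell and 0 rose with pioglitazone, 1 fell and 0 rose with rosiglitazone, and 1 fell and 1 rose with troglitazone; the background for a fall is 0.273%, 0.571% and 0.554%. The gene that fell with each drug was Apoc1, an apolipoprotein known to inhibit lipoprotein lipase. Its signal was 10380 ± 424 with pioglitazone, 13521 ± 2862 with rosiglitazone and 9565 ± 2818 with troglitazone, against 21168 ± 4410 with vehicle (SD, n = 2, 3, 3 and 3). It fell by 0.83 ± 0.15 on the log2 scale (adjusted p = 0.0138), by 0.65 ± 0.13 (adjusted p = 0.0211) and by 1.17 ± 0.13 (adjusted p = 0.000136). The troglitazone call held with any array left out (adjusted p up to 0.00309) but was lost with no set term, with no intensity trend and when just the compared groups were fitted (up to 0.119). The pioglitazone call ended when any 1 pioglitazone or vehicle array was left out (up to 0.0991) and under median centring (0.0809), and the rosiglitazone call when any 1 rosiglitazone or vehicle array was (up to 0.133). The 3 settings that ended the troglitazone call ended these calls too, and the calls below of Lipa with troglitazone and Cav1 with pioglitazone. The 2 called genes outside the cell that act on the lipase, Angptl4 and Apoc1, moved in opposite directions. Lipa, the lysosomal acid lipase, rose with troglitazone (0.91 ± 0.20, adjusted p = 0.0314), a call that ended when any 1 rosiglitazone or troglitazone array, or vehicle replicate 1 or 4, was left out (up to 0.309). With pioglitazone and rosiglitazone Lipa was at 0.33 and 0.70 (adjusted p = 0.715 and 0.121).

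Among 7 other measured fatty acid binding proteins, Scp2, a peroxisomal carrier of sterols and lipids, rose with rosiglitazone (0.89 ± 0.15, adjusted p = 0.00698), a call that ended without vehicle replicate 4 (adjusted p = 0.0638) and in set 1 alone, with no set term, with no intensity trend and with just the compared groups (up to 0.182). It was at 0.74 with pioglitazone and 0.62 with troglitazone (adjusted p = 0.0669 and 0.0673). Of 7 other measured uptake and transport genes, Cav1, caveolin, fell with pioglitazone, by 1.19 ± 0.24 (adjusted p = 0.0277). This call held only when the array left out was pioglitazone replicate 2 or rosiglitazone replicate 4, and the adjusted p otherwise reached up to 0.263. Cav1 was at -0.71 with rosiglitazone and -0.80 with troglitazone (adjusted p = 0.150 and 0.0934). Both passed without pioglitazone replicate 1 or without pioglitazone replicate 2, and troglitazone also under quantile normalisation. For the mean of the 3 drugs Cav1 fell by 0.90 ± 0.18 (adjusted p = 0.0106), and no alternative was run for that call. None of 3 other measured acyl-CoA synthetases and none of 6 lipoprotein receptors and partners passed with any of the drugs. For the mean of the 3 drugs, 1 of the receptors and partners fell, beside 0.86% of tested probe sets. This was Lrpap1 (-0.63 ± 0.14, adjusted p = 0.0245), and no alternative was run for its call.

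Fatty acids that enter the cell are oxidised or stored as triglyceride. Of 16 measured genes of mitochondrial fatty acid oxidation, 4 rose with pioglitazone, 4 with rosiglitazone and 3 with troglitazone, and 0 fell with any drug; with an array left out, 1 to 4, 1 to 4 and 1 to 2 were called. Among all tested probe sets 0.63%, 0.784% and 0.775% rose. The median log2 difference of the oxidation genes was 0.81, 0.53 and 0.28, beside -0.08, 0 and -0.03 over all tested probe sets. Of 9 measured genes of triglyceride synthesis and lipid droplets, 2, 3 and 3 rose and 0 fell; those named are Cidec, Plin2 and Cidea, proteins of the lipid droplet. Cidec rose by 1.43, 1.16 and 1.07 on the log2 scale with pioglitazone, rosiglitazone and troglitazone (adjusted p = 0.000138, 0.000234 and 0.000219). Its calls were lost with no intensity trend and with just the compared groups (adjusted p up to 0.408). The troglitazone call was also lost with no set term. For the 7 measured uptake and binding genes the median was 0.11, 0.27 and 0.20, and 4 of the 7 were above 0 with each drug, as were 43.2%, 49.9% and 45.9% of all tested probe sets.

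**Figure D4:**
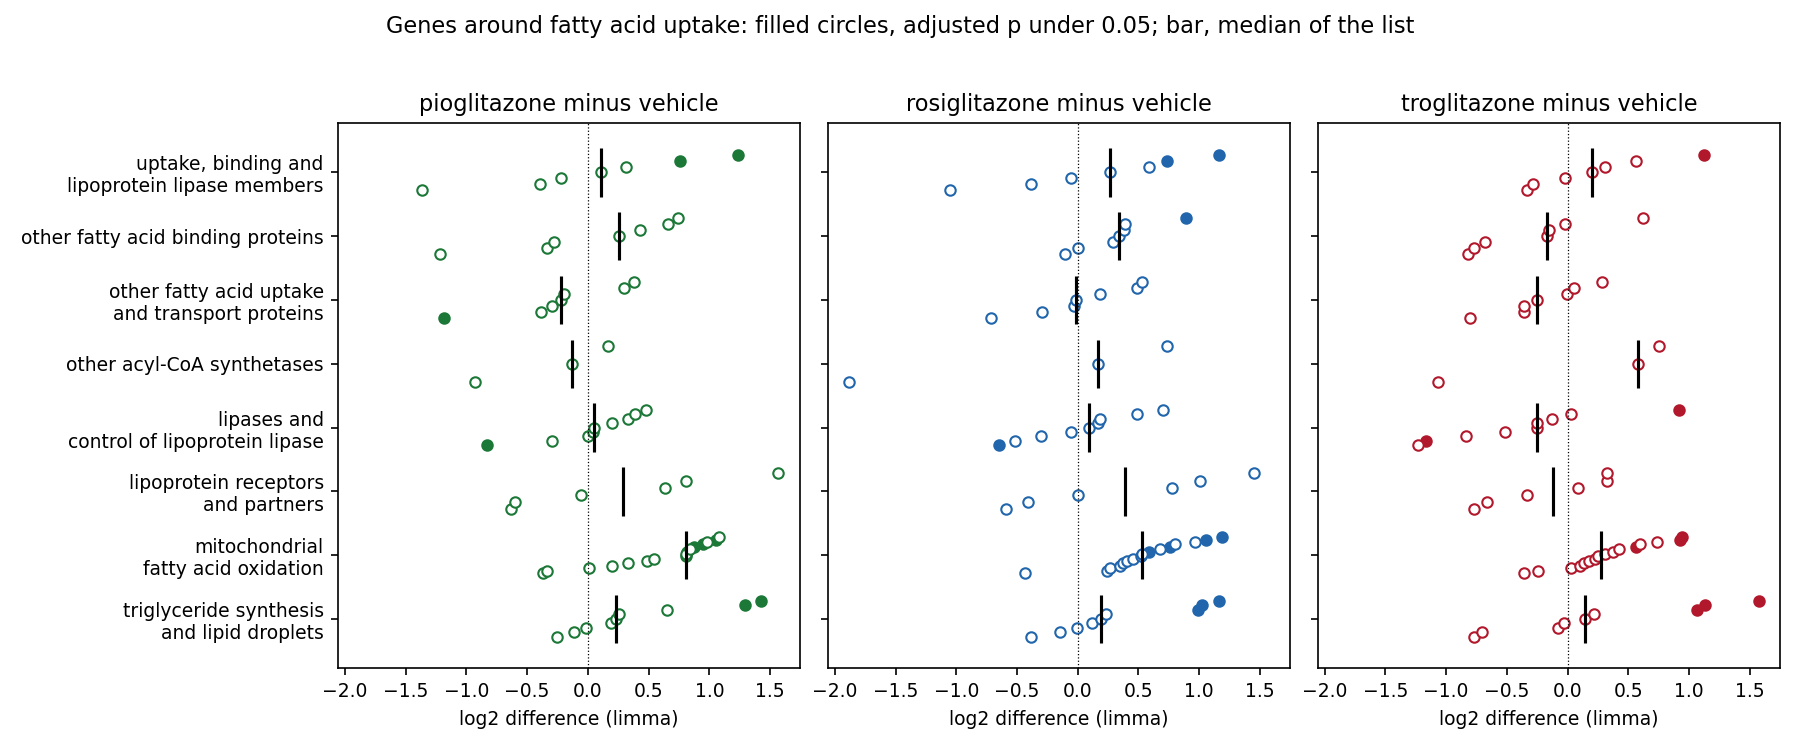
Fitted log2 difference from vehicle (x axis) for every measured gene of the uptake, binding and lipase group and of 7 lists around it, for pioglitazone, rosiglitazone and troglitazone; filled circles passed at an adjusted p under 0.05 and bars are list medians. Mitochondrial fatty acid oxidation holds 4, 4 and 3 filled circles to the right of 0, and Apoc1 is the filled circle to the left in the lipase list.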

How the data were processed

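RNA from 11 samples was measured on one-colour oligonucleotide arrays, 1 array per sample. The authors deposited linear signal intensities that they had already scaled: the mean after trimming 2% at each end was 500.289 to 500.433 on every array. The array software is not given in the sources used here. Of the 12488 probe sets, 66 controls were set aside, lower values were set to 73.7, the 25th percentile over all arrays (the floor), and base 2 logarithms were taken. The 11739 probe sets above the floor on at least 2 arrays were tested, and 683 were not; 20.99% of tested values lay at the floor. The floor and the number of arrays limit the precision.

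By the annotation, 10833 probe sets have 1 gene, 396 more than 1, and 1193 no gene. A gene with several tested probe sets was represented in counts by the one with the highest mean log2 signal, and every probe set of the 8 genes is given. From the wider lists, up to 4 genes that passed in any drug contrast were eligible to be named. Members, lists and alternatives were chosen from textbook knowledge with earlier results of these data known.

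limma 3.58.1 in R 4.3.3 fitted a term per group and a term for the set to all 11 arrays (6 residual degrees of freedom), with moderated two-sided statistics whose prior variance follows the signal. The Benjamini-Hochberg adjustment ran over all tested probe sets within each contrast. The contrasts were each drug minus vehicle, the mean of the 3 drugs minus vehicle, and troglitazone minus pioglitazone; a mean per group and set gave the change between sets. The fit was tested on simulated data. The other settings tried were median centring, quantile normalisation, a floor at 32.2 or 207.7, an added constant, no filter, no set term, set 1 alone, a replicate block, a fit of the compared groups alone, no intensity trend, each array left out, both arrays that stand apart left out, and the beta-actin ratio as a covariate. Counting members by probe set was added after the data were seen.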

Additional observations from a re-analysis of the deposited data

How the results depend on the processing

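Over all alternatives, 1094 of 1193 refitted values of the members kept their direction and their side of the threshold. Of the rest, 41 lost a call, 1 gained one and 57 changed sign, and the cause of these changes was not tested. Most of the 1193 had no call to lose. The lost calls were all of Angptl4 and Fabp5, and Fabp5 with pioglitazone lost its call in 19 of 24 alternatives. Some differences could not move: leaving out a pioglitazone array leaves the rosiglitazone difference as it was. Of 792 refitted values of the named list genes, 156 lost a call, 13 gained one and 0 changed sign. Angptl4 kept its direction in both bright probe sets against vehicle under every alternative run, and lost calls only without the intensity trend and when just the compared groups were fitted. Dim probe sets near the floor are limited by signal over background, and no alternative was tried on the probe-level data.

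Without one array the brightest Angptl4 probe set stayed between 1.08 and 1.39 with pioglitazone, 1.06 and 1.23 with rosiglitazone and 1.02 and 1.19 with troglitazone. The number of called members ranged over the left-out arrays from 1 to 2 with rosiglitazone and 1 to 2 for the mean of the drugs, and was 1 throughout with pioglitazone and with troglitazone. Probe sets called ranged from 43 to 111, 74 to 158, 72 to 162 and 115 to 236 in the same order, and from 1 to 7 for troglitazone minus pioglitazone. List counts ranged from 0 to 1, 0 to 1 and 1 to 2 (lipases, pioglitazone, rosiglitazone and troglitazone), 1 to 4, 1 to 4 and 1 to 2 (fatty acid oxidation), 0 to 1 (transport, each drug) and 0 to 1 (other binding proteins, rosiglitazone).

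Numbers of probe sets called with pioglitazone, rosiglitazone, troglitazone, their mean, and troglitazone minus pioglitazone (106, 159, 156, 251 and 4 as reported) were 25, 40, 55, 84 and 1 with no set term, 23, 19, 37, 56 and 0 in set 1 alone, and 6, 6, 19, 30 and 0 with no intensity trend. Fitting just the compared groups gave 0, 18 and 40 for the drugs and 0 for the drug pair. With no filter on dim probe sets there were 99 with rosiglitazone and 89 with troglitazone. With both arrays that stand apart left out there were 58 with rosiglitazone and 25 for the drug pair.

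Called members with pioglitazone numbered 1 under quantile normalisation, with no filter, in set 1 alone, with no set term, with both arrays that stand apart left out and with the beta-actin covariate, and 0 with no intensity trend and with only the groups compared. With rosiglitazone they numbered 1 in set 1 alone, with no set term, with only the groups compared and without both arrays that stand apart, and 0 with no trend. For troglitazone they were 0 with no trend, and 2 with median centring and when members were counted by probe set, a count added after seeing the data; for the mean of the drugs they were 1 in set 1 alone, with no set term and with no trend. List counts moved to 0, 1 or 2 under these settings.

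The titles share replicate numbers across groups. The differences between replicates 1 and 2 correlated from -0.0444 to 0.00994 between groups, so no pairing by number was visible in them. The labels do not say whether samples of the same number were handled together, and noise in these differences could hide it. With a replicate block 114, 162, 144, 247 and 4 probe sets and 2, 2, 1, 2 and 0 members were called.

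Signs changed in differences that had not passed. Under the beta-actin covariate, Cd36 was at -0.26 with pioglitazone, 0.11 with troglitazone and 0.37 for troglitazone minus pioglitazone, and that drug difference was 0.067 for Fabp4, 0.25 for Lpl and -0.011 for Slc27a1. With both arrays that stand apart left out, Cd36 was at -0.45 with pioglitazone, -0.063 for the mean and 0.42 for the drug difference, which was 0.065 for Fabp4, 0.30 for Lpl and -0.13 for Slc27a1; Vldlr (96534_at) was at 0.47 with rosiglitazone. Quantile normalisation gave 0.021 for Cd36 with troglitazone, 0.068 and 0.0017 for the drug difference of Fabp4 and Lpl, and 0.045 for Vldlr (96534_at) with rosiglitazone. Median centring gave 0.087 for Cd36 with troglitazone and 0.037 for Vldlr (96534_at) with rosiglitazone. The covariate gave 0.015 for the same Vldlr difference. No set term gave a drug difference of 0.085 for Lpl and -0.27 for Slc27a1, and Fabp4 was at 0.020 in set 1 alone and with only the groups compared. A floor of 207.7 gave -0.026 for Angptl4 96118_at with pioglitazone and, for Vldlr 160865_at, 0.24 with rosiglitazone and 0.0064 for the mean; an added constant gave 0.00044 with rosiglitazone.

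Leaving out one array also turned signs, within ranges of -0.32 to 0.72 (96118_at of Angptl4, pioglitazone), -0.44 to 0.66 (Cd36, pioglitazone), -0.12 to 0.081 (Cd36, troglitazone), -0.067 to 0.30 (Cd36, mean), -0.60 to 0.16 (Lpl 95611_at, pioglitazone), -0.74 to 0.076 (Slc27a1, troglitazone), -0.49 to 0.60 and -0.14 to 0.50 (Vldlr 160865_at, rosiglitazone and troglitazone), and -0.61 to 0.14 and -0.37 to 0.47 (Vldlr 96534_at, pioglitazone and rosiglitazone). For troglitazone minus pioglitazone the ranges were -0.26 to 0.040 (Angptl4 96119_s_at), -0.68 to 0.42 (Cd36), -0.11 to 0.069 (Fabp4), -0.49 to 0.27 (Lpl) and -0.42 to 0.53 (Slc27a1).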
